A study of Mus musculus with 16 samples.

Results

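The genes described here are those of the mouse major histocompatibility complex, whose names begin with H2-, together with B2m, Cd74, Ciita, Tap1, Tap2, Tapbp and Nlrc5, measured in whole brain. The set of names was chosen with earlier results of these data known. Probes were then taken by name alone: every non-control probe of the array with such a gene name was taken, which gave 63 probes for 47 gene names (40 of them H2- names) among 55681 probes and 34821 gene names. RNA came from fresh brains of male C57BL/6J mice and was read on 16 Agilent arrays in 1 colour. The groups were Slc5a8-deficient mice at 18 months, wild-type mice at 18 months, Slc5a8-deficient mice at 4 months and wild-type mice at 4 months, with 4 arrays each, which the design text calls biological replicates. Slc5a8 carries lactate, ketone bodies and other monocarboxylates into cells together with sodium, and the labels do not describe the deficient allele.

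Class I molecules carry peptides from inside the cell to CD8 T cells and consist of a heavy chain, such as H2-K1 or H2-D1, paired with beta-2-microglobulin, the product of B2m. The peptides are pumped into the endoplasmic reticulum by the transporter made of Tap1 and Tap2 and are loaded with the help of tapasin, the product of Tapbp, while Nlrc5 is a transactivator of class I genes. Class II molecules, paired alpha and beta chains such as H2-Aa with H2-Ab1, show peptides from endosomes to CD4 T cells. Cd74 is their chaperone, H2-DM and H2-O edit their peptides, and Ciita switches on their transcription. In the healthy brain, microglia, cells of vessels and cells at the borders are the usual sources of these transcripts, and neurons make little.

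The 47 genes fell into roles of classical class I chains, other class I chains of the Q, T and M regions, the class I partners B2m and Nlrc5, peptide supply, class II chains, class II partners, class II editing and 2 neighbours. The neighbours H2-Ke2 (now Pfdn6, a prefoldin subunit) and H2-Ke6 have an H2- name and no part in antigen presentation. A level is log2 of the background-subtracted signal minus the array's 75th percentile, so levels of different probes are not compared. Kept probes were those that cleared the background mark on each of the 4 arrays of some group, which held for 40 of the 63 probes and 34 of the 47 genes, and 14 probes were above background on none of the 16 arrays. Among the class II chains, H2-Aa, H2-Ab1 and H2-Eb1 were kept, while H2-Ea-ps, the alpha chain pseudogene of C57BL/6 mice, was well above background on 0 arrays and H2-Eb2 on 2. The probes of H2-M1, H2-M9, H2-M10.1, H2-M10.4 and H2-M10.6 also stayed below that mark on every array.

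Several probes of these related genes share stretches of sequence, so a signal cannot always be credited to 1 gene. The stretches below were read from the scanner files, with coordinates of the whole 60-base probe on mm9. Capitals mark the longest run that both members of each pair share, 29 bases for H2-K1 with H2-T23 and 28 bases for H2-K2 with H2-Q7. They are shown because each of these probes could take up transcripts of its partner, which was not tested.
H2-K1 (chr17:34133984-34134043, minus strand): TGGAGCTGTGGTGGCTTTTGTGATGAAGAt
H2-T23 (chr17:36167338-36167574, minus strand): TGGAGCTGTGGTGGCTTTTGTGATGAAGAg
H2-K2 (chr17:34111941-34112000, minus strand): aTCTCCTGTGACATCCAGAGCCCTCAGTTt
H2-Q7 (chr17:35580315-35580374, plus strand): cTCTCCTGTGACATCCAGAGCCCTCAGTTc

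The H2-K1 stretch belongs to a second H2-K1 probe, not to the one that represents the gene below, and the H2-K2 stretch likewise. The H2-K2 probe that represents the gene still shares a run of 19 bases with the H2-Q7 probe. The 2 probes of H2-Ab1 overlap by 51 bases and differ in 1 of them, T51C, counted from the 5′ end of the first probe. That base is the capital in the next pair.
H2-Ab1 first probe (chr17:34406296-34406355, plus strand): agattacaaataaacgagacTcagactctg
H2-Ab1 second probe (chr17:34406305-34406363, plus strand): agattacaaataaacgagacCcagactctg

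The Ciita and H2-Q4 probes are shown because results on these members rest on 1 probe each with such sequence. The whole Ciita probe holds 8 copies of AAAAC, of which those in the printed stretch are in capitals, and it shares runs of 16 bases or more with probes of 28 other genes. In the H2-Q4 probe, the capitals mark a 16-base run that lies in 29 promoters of other genes in the RefSeq promoter table (GRCm38.p6), and runs of 16 bases of this probe lie in the promoters of 38 other genes in all. Runs in 10 or more other promoters were found for 3 of the 63 member probes (4.76%) and for 1.54% of all probes on the array. What else these probes can bind was not tested.
Ciita (chr16:10526568-10526627, plus strand): AAAACAAAACAAAACgaaacAAAACAAAAC
H2-Q4 (chr17:35521294-35521353, plus strand): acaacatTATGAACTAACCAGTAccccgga

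Deficient brains at 4 months did not differ from wild-type brains in any of the 34 genes after adjustment over all 23030 genes tested, by limma with Benjamini-Hochberg adjustment at 0.05. In this comparison 1.53% of all genes were called, so 0 of 34 members is near the background, and 7 members had an unadjusted p under 0.05, where 17.4% of all genes did. Of these 7, Ciita and H2-M5 passed the filter only through the young deficient group, where they were high, so the filter favoured a difference and they support nothing. The median member difference was 0.08 on the log2 scale and that of all genes 0.02. At 18 months 0 of 34 members were called against 1.48% of all genes, 2 had an unadjusted p under 0.05 (9.91% of all genes), and the median difference was 0.11, against 0.01 for all genes. Averaged over both ages the members called were again 0, against 3.18% of all genes, with 4 at an unadjusted p under 0.05 (15.4% of all genes), Ciita and H2-M5 among them.

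Between 18 and 4 months, 1 member was called in deficient brains, Tap2, against 2.38% of all genes, and 6 of the 34 had an unadjusted p under 0.05, where 20.9% of all genes did. In wild-type brains 0 members were called, against 0.421% of all genes, and 2 had an unadjusted p under 0.05 (6.31% of all genes). For the interaction of genotype and age the count was 0 against 0.187% of all genes, with 3 members at an unadjusted p under 0.05 (10.6% of all genes), and for age averaged over genotypes it was 0 against 1.6%, with 6 such members (14.8% of all genes). When every kept probe was tested on its own, 0 of the 40 member probes were called in any of the 7 contrasts, against 1.43% of all probes for genotype at 4 months, 1.35% at 18 months, 0.375% for age in wild-type brains, 2.1% for age in deficient brains, 0.236% for the interaction, 3.12% for genotype averaged and 1.45% for age averaged. The array can miss small changes here: the 95% interval lay wholly within 1 log2 unit of 0 for 29 of 34 members in the young genotype comparison and for 30 in the old one, and within 0.5 for 8 in each.

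**Figure D1:**
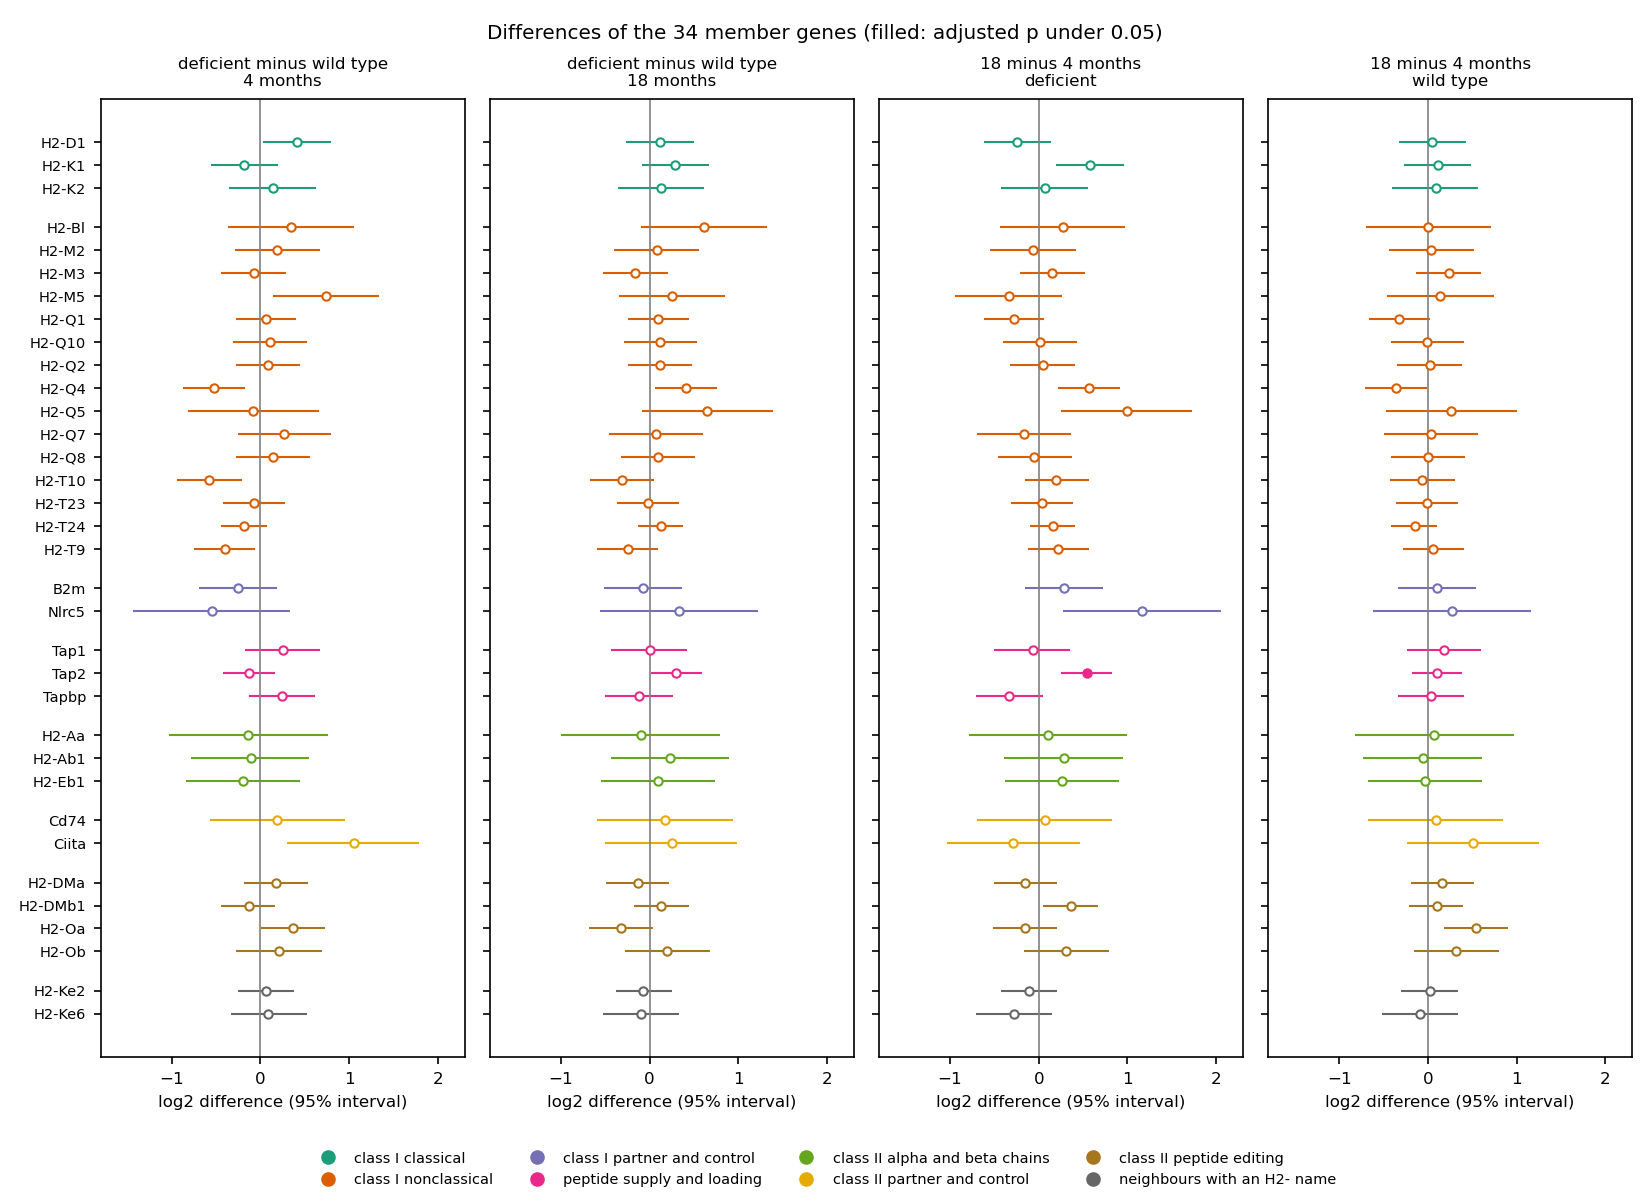
Log2 differences of the 34 member genes with their 95% intervals, coloured by role, for deficient minus wild type at 4 and 18 months and for 18 minus 4 months in each genotype (n = 4 arrays per group). The only filled point, which marks an adjusted p under 0.05, is Tap2 in the comparison of ages in deficient brains.

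Slides and genotypes cannot be told apart in these arrays, since all deficient arrays lay on 1 slide and all wild-type arrays on the other. Within a genotype, the ages lay in different rows of the slide, and the rows were swapped between the slides. Young deficient and old wild-type arrays lay in row 1, old deficient and young wild-type arrays in row 2. Neither an age difference within 1 genotype nor the interaction of genotype and age can therefore be told apart from the row. Slc5a8 itself was well above background on 0 of 16 arrays with its only probe, far down the transcript, so the deficiency cannot be checked here. The array of deficient replicate 1 at 4 months stood apart on the first principal component of all genes (29.5% of the variance), with a score of 97.2 and the next highest 26.6 (wild-type replicate 2 at 18 months) and 26.1 (wild-type replicate 4 at 4 months). The 75th percentiles of the signal on these 3 arrays were 626, 774 and 826, in a range of 626 to 1348 over the 16. Wild-type replicate 3 at 18 months, also at 826, had a score of -23.8. Deficient replicate 1 at 4 months was the highest of the 16 for 18 of the 34 members (52.9%, against 33.1% of all genes) and the lowest for 8. The array of wild-type replicate 2 at 4 months was the lowest for 14 members (41.2%), against 7% of all genes. In whole tissue, fewer cells of a type and less RNA per cell cannot be told apart.

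**Figure D2:**
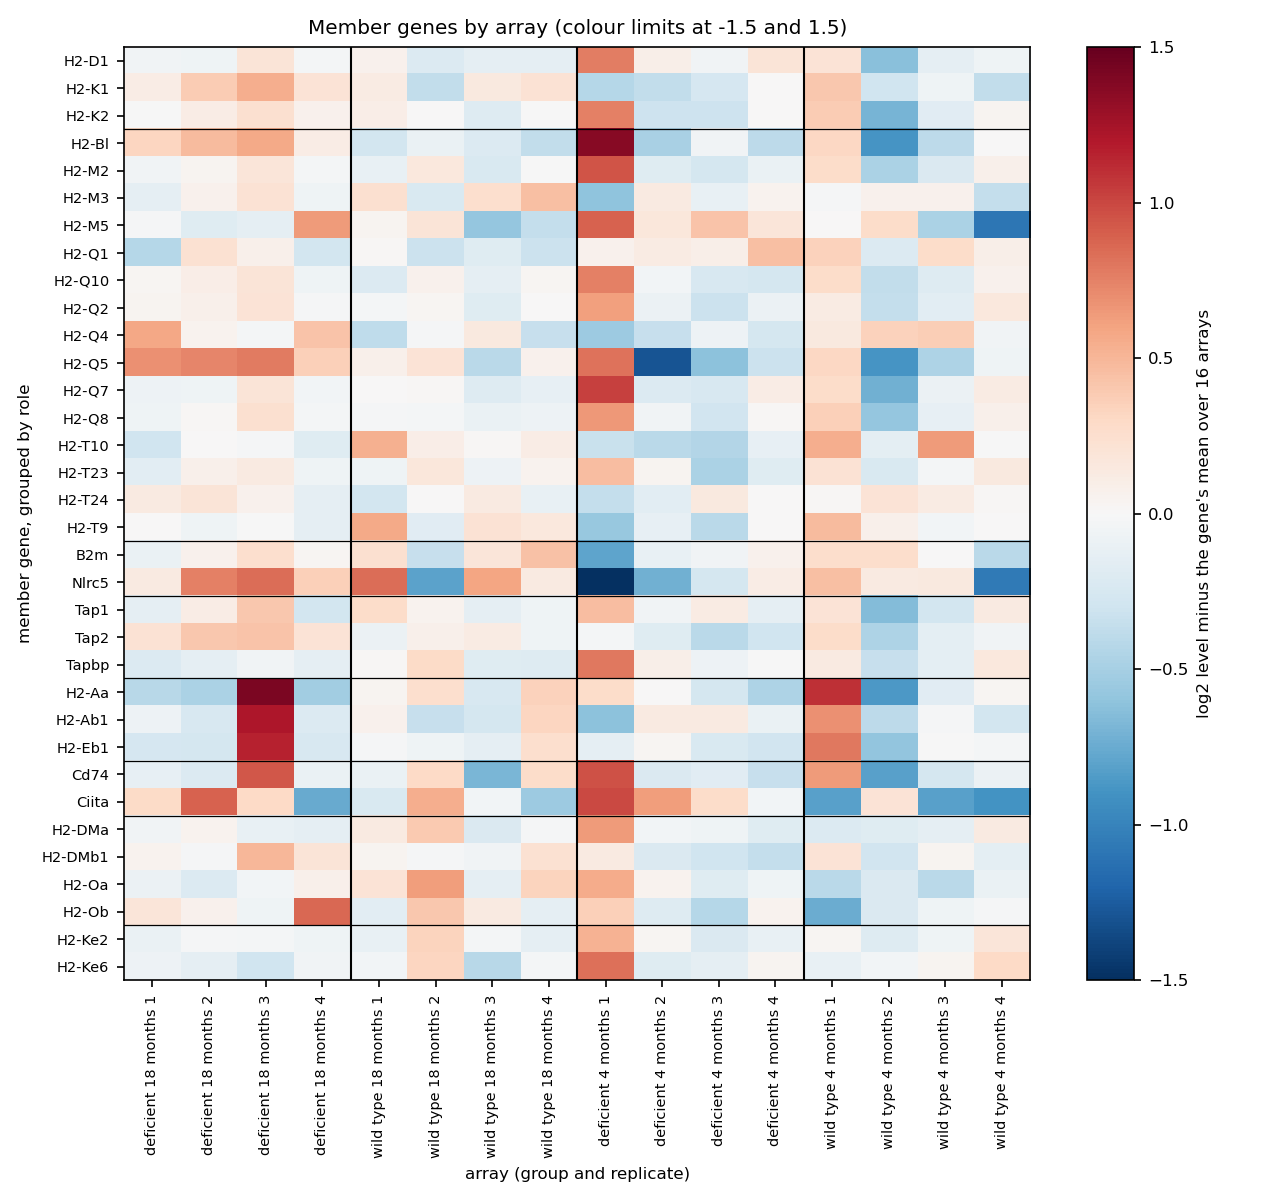
Level of each member gene on each array relative to that gene's mean over the 16 arrays (log2, colours limited at -1.5 and 1.5), with genes grouped by role. Deficient replicate 1 at 4 months is high for most class I chains and low for B2m and Nlrc5, and the class II chains are high together on deficient replicate 3 at 18 months and wild-type replicate 1 at 4 months.

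Among the classical class I chains, H2-K1 was higher in old than in young deficient brains on every array, a difference that did not pass the test. Its levels in deficient brains were 2.69, 2.96, 3.13 and 2.79 at 18 months and 2.15, 2.21, 2.33 and 2.58 at 4 months. In wild-type brains they were 2.70, 2.21, 2.73 and 2.80 at 18 months and 2.99, 2.28, 2.52 and 2.21 at 4 months. The old and young deficient arrays did not overlap, while the wild-type ages overlapped widely. The difference was 0.58 ± 0.18 (SE, n = 4 each) in deficient brains, with an unadjusted p of 0.00539 and an adjusted p of 0.096 by limma.

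The second H2-K1 probe, at base 1021 of its transcript where the first lies at 1488, gave 0.18 ± 0.22 for the same comparison, with an adjusted p of 0.656 in limma's fit of every probe. The probes parted most on 1 array: relative to its own mean over the 16 arrays, the first stood at -0.43 and the second at 0.59 on deficient replicate 1 at 4 months. On wild-type replicate 4 at 4 months the same values were -0.37 and 0.12, and on wild-type replicate 2 at 18 months -0.37 and 0.15. These are the 3 arrays highest on the first principal component. Without them the first probe's gene was still not called in this comparison.

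**Figure D3:**
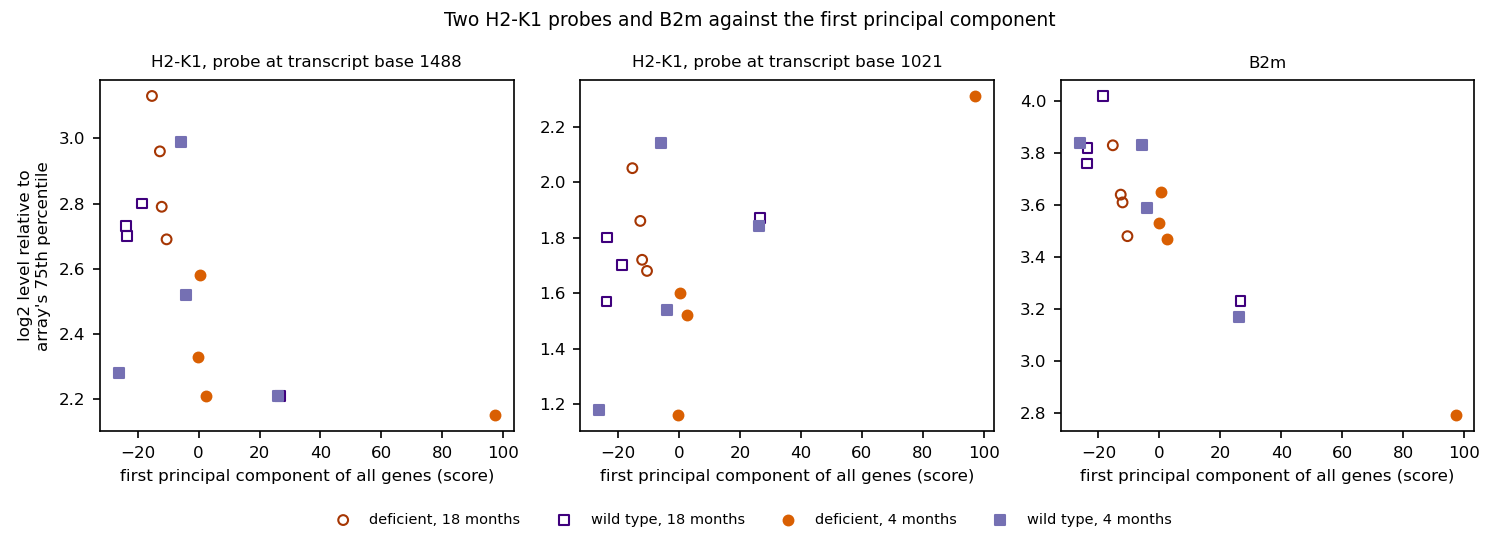
Level (log2) of the 2 H2-K1 probes and of B2m on each array against the array's score on the first principal component of all genes, with groups by colour and shape. Deficient replicate 1 at 4 months, at the far right, is the lowest array for the first H2-K1 probe and for B2m and the highest for the second H2-K1 probe.

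H2-D1, the other classical heavy chain of this strain, had levels of 3.20, 2.52, 2.39 and 2.62 in deficient brains and 2.63, 1.80, 2.3 and 2.36 in wild-type brains at 4 months. Deficient replicate 1 was the highest and wild-type replicate 2 the lowest, and the groups overlapped. The difference of 0.41 ± 0.18 had an adjusted p of 0.257 by limma. It was 0.23 without that deficient array and 0.25 without that wild-type array. At 18 months the means were 2.44 ± 0.12 in deficient and 2.32 ± 0.12 in wild-type brains (SD, n = 4 each). H2-K2, a classical-type gene near H2-K1, picked with its values already known, had means of 2.01 ± 0.11 in old deficient, 1.88 ± 0.12 in old wild-type, 1.94 ± 0.50 in young deficient brains and 1.80 ± 0.45 in young wild-type brains, so its spread was larger among young animals of either genotype.

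The other class I chains numbered 15 tested genes, 0 of them called in any contrast by limma, against 0.187% to 3.18% of all genes. H2-Q4, H2-Q5, H2-T10, H2-T9, H2-M5, H2-T23, H2-M3 and H2-T24 are given next, and were chosen after their values were seen. H2-Q4 had opposite genotype differences at the ages: its levels were 5.92, 5.39, 5.31 and 5.77 in old deficient brains and 4.97, 5.32, 5.49 and 4.99 in old wild-type brains, and 4.79, 4.99, 5.26 and 5.08 in young deficient brains and 5.5, 5.69, 5.71 and 5.29 in young wild-type brains. All young deficient arrays lay below all young wild-type arrays, and the old groups overlapped. The genotype differences were 0.41 ± 0.16 at 18 months and -0.52 ± 0.16 at 4 months, and the interaction was 0.93 ± 0.23 (unadjusted p = 0.00124, adjusted p = 0.174 by limma). This interaction cannot be told apart from the row of the slide. In row 2 the means were 5.6 in old deficient and 5.55 in young wild-type brains. In row 1 they were 5.03 in young deficient and 5.19 in old wild-type brains.

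H2-Q5 had levels of -1.08, -1.04, -0.98 and -1.40 in old deficient brains and -0.95, -3.06, -2.38 and -2.08 in young deficient brains. Deficient replicate 1 at 4 months was the highest of all of these and the other young arrays were lower than every old one. The difference was 0.99 ± 0.35 (adjusted p = 0.132 by limma), and was called in 1 of the 16 fits that left out 1 array. Without deficient replicate 1 at 4 months it was 1.38 (adjusted p = 0.0217), and without replicate 2 of that group 0.68 (adjusted p = 0.22). In wild-type brains H2-Q5 had means of -1.77 ± 0.27 at 18 months and -2.04 ± 0.51 at 4 months (SD, n = 4 each).

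H2-T10, a class I-like protein that gamma delta T cells recognise, was the member nearest to a call for genotype averaged over ages. Its levels were -3.01, -2.70, -2.73 and -2.89 in old deficient brains and -2.18, -2.61, -2.69 and -2.60 in old wild-type brains. At 4 months they were -3.04, -3.12, -3.15 and -2.83 in deficient and -2.17, -2.86, -2.07 and -2.72 in wild-type brains. The old groups did not overlap, and at 4 months wild-type replicate 2 reached into the deficient range. The averaged difference was -0.44 ± 0.12 with an adjusted p of 0.0605 by limma. Leaving out 1 array at a time gave a call in 1 of 16 fits (without wild-type replicate 2 at 4 months, -0.51), with adjusted p from 0.0281 to 0.126. H2-T9 differed by -0.32 ± 0.11 (adjusted p = 0.166), while H2-M5 differed by 0.50 ± 0.20. That is a description only, since its probe was well above background on all 4 young deficient arrays but on 2 old deficient, 1 old wild-type and 1 young wild-type arrays, and so was kept only through the group where it was high.

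H2-T23, the Qa-1 molecule that natural killer cells read through its bound peptide, had means of 2.67 ± 0.13 in old deficient, 2.69 ± 0.12 in old wild-type, 2.63 ± 0.40 in young deficient brains and 2.70 ± 0.20 in young wild-type brains. H2-M3, which presents formylated peptides, had -1.53 ± 0.16, -1.38 ± 0.28, -1.69 ± 0.32 and -1.61 ± 0.20 in the same order of groups. For H2-T24 and H2-Ob, 2 kept probes gave differences of opposite sign between deficient and wild-type brains at 4 months. Those of H2-T24 were -0.19 ± 0.12 and 0.17 ± 0.23, and those of H2-Ob were 0.21 ± 0.23 and -0.65 ± 0.24, 0 of which passed limma's test over all probes.

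The shared light chain B2m had levels of 3.48, 3.64, 3.83 and 3.61 in old deficient brains and 3.82, 3.23, 3.76 and 4.02 in old wild-type brains. At 4 months it had 2.79, 3.47, 3.53 and 3.65 in deficient and 3.83, 3.84, 3.59 and 3.17 in wild-type brains. All groups overlapped, and the lowest 3 of the 16 arrays were those 3 highest on the first principal component. The same 3 arrays were the lowest for Nlrc5, which had -4.03, -3.42, -3.34 and -3.82 in old deficient and -3.34, -4.98, -3.59 and -4.04 in old wild-type brains. At 4 months Nlrc5 had -5.86, -4.89, -4.44 and -4.06 in deficient and -3.73, -4.04, -4.02 and -5.24 in wild-type brains.

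Every old deficient array lay above every young deficient array for Nlrc5. The difference was 1.16 ± 0.42 with an unadjusted p of 0.0141 and an adjusted p of 0.143 by limma. These 3 arrays were the lowest 3 for 4 of the 34 members (11.8%) and for 8.39% of all genes, and the highest 3 for 4 members and for 13% of all genes. Between the genotypes, 1 member (H2-Q4) did not overlap at 4 months, against 9.46% of all genes, and 4 (H2-Bl, H2-Q5, H2-T10 and Tap2) at 18 months, against 8.09%. Between ages in wild-type brains it was 0 members, against 3.54%. Without overlap between ages in deficient brains were 4 members (11.8%), H2-K1, H2-Q4, Nlrc5 and Tap2, all higher at 18 months, where 17.9% of all genes did not overlap.

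**Figure D4:**
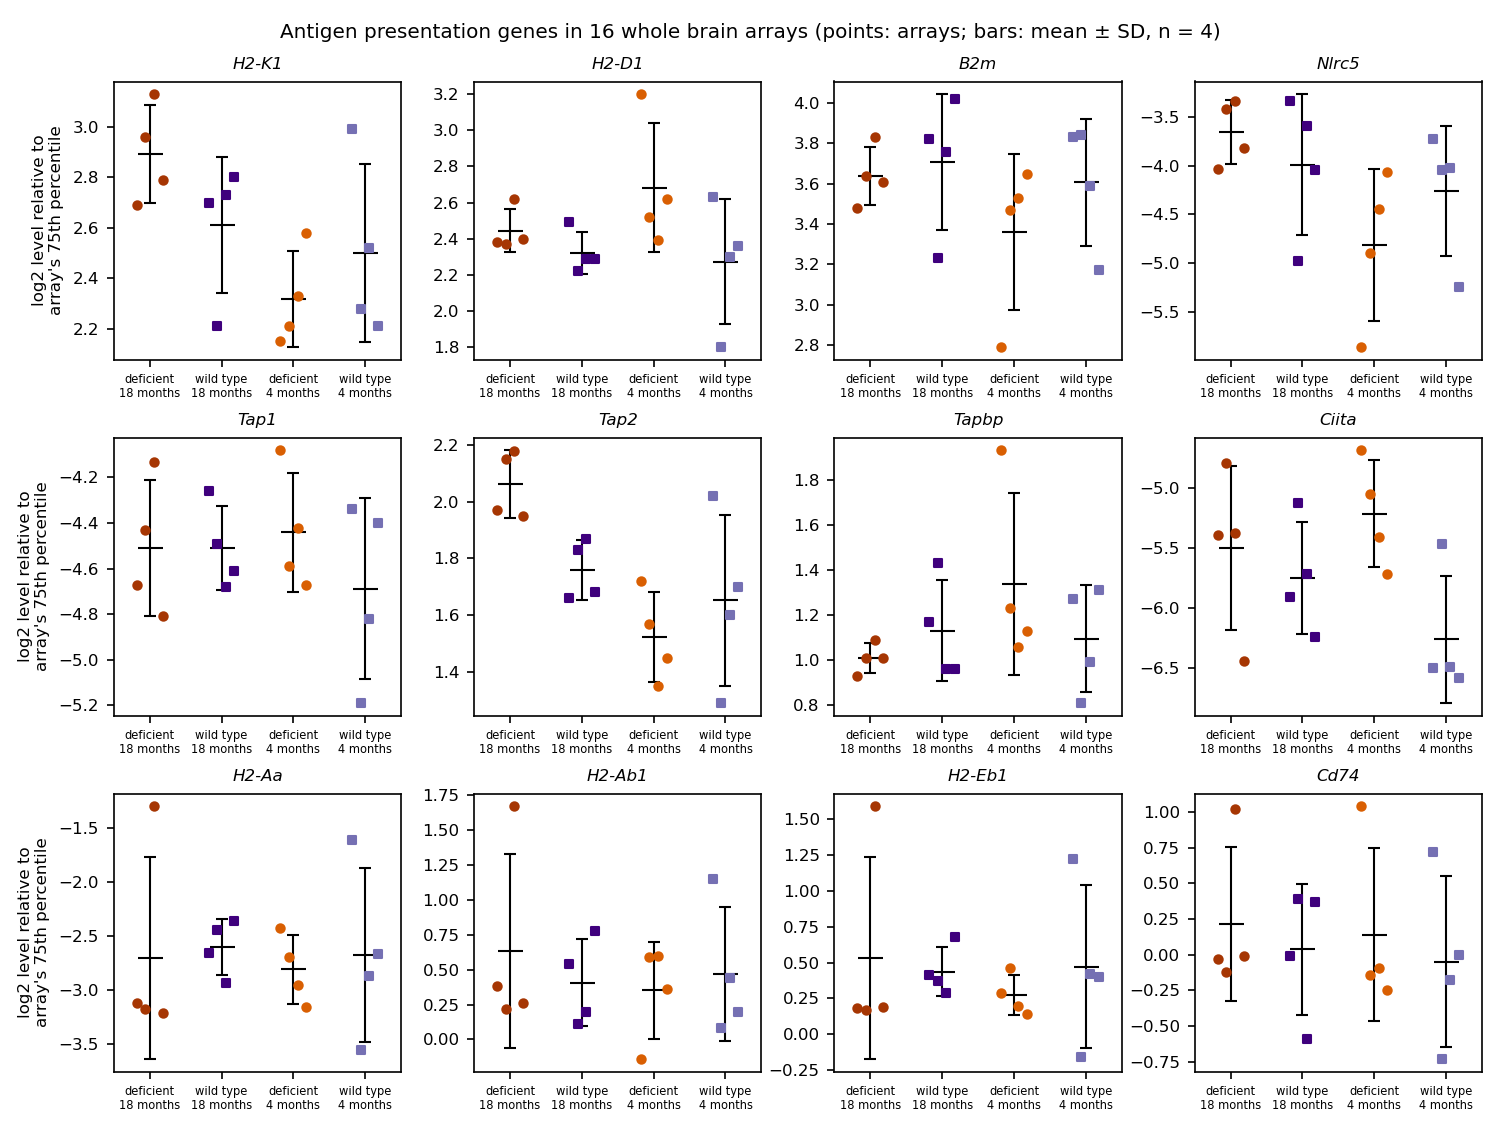
Log2 levels of 12 antigen presentation genes on each array, by genotype and age, with mean ± SD (n = 4 arrays per group). Tap2 is above 1.9 on every old deficient array, and the class II chains and Cd74 show 1 high array in some groups.

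Of the peptide supply genes, Tap2 was called higher in old than in young deficient brains, by a narrow margin. These ages lay in different rows of the slide, so age and row cannot be told apart. The Tap2 probe lies on chromosome 17 at bases 34353116 to 34353175 (mm9, plus strand). Tap2 had levels of 1.97, 2.15, 2.18 and 1.95 in old deficient brains and 1.66, 1.83, 1.87 and 1.68 in old wild-type brains. At 4 months it had 1.72, 1.57, 1.35 and 1.45 in deficient and 2.02, 1.29, 1.60 and 1.70 in wild-type brains. Old deficient arrays lay above all young deficient and all old wild-type arrays, and only wild-type replicate 1 among the young arrays reached their range.

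The age difference of Tap2 in deficient brains was 0.54 ± 0.13 (adjusted p = 0.0496 by limma over genes, and 0.0544 over every probe). In wild-type brains it was 0.10 ± 0.13, and the interaction of 0.44 ± 0.19 did not pass the test (adjusted p = 0.446), so the ages are not shown to differ more in 1 genotype. The call is fragile: leaving out 1 array at a time kept it in 3 of 16 cases (without replicate 1 of the young deficient or replicate 1 or 2 of the young wild-type group), with adjusted p from 0.0295 to 0.148, and it was lost with normexp background correction (0.0542), with no filter on dim probes (0.108), with a fit of the deficient arrays alone (0.0794) and with the replicate number as a block (0.0896). At 18 months the difference from wild type was 0.30 ± 0.13 (adjusted p = 0.462).

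Tap1, whose gene lies near that of Tap2, was not called in any contrast. Its means were -4.51 ± 0.30 in old deficient, -4.51 ± 0.18 in old wild-type, -4.44 ± 0.26 in young deficient brains and -4.69 ± 0.40 in young wild-type brains (SD, n = 4 each), with 10 spots on each array. Tapbp had means of 1.01 ± 0.06, 1.13 ± 0.22, 1.34 ± 0.40 and 1.10 ± 0.24 in the same order of groups, and its highest array, at 1.93, was deficient replicate 1 at 4 months.

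The class II chains were not called in any contrast, and their highest levels fell on the same 2 arrays. H2-Aa had levels of -3.12, -3.18, -1.30 and -3.22 in old deficient brains and -2.66, -2.45, -2.94 and -2.36 in old wild-type brains. At 4 months it had -2.43, -2.70, -2.96 and -3.16 in deficient and -1.61, -3.56, -2.87 and -2.67 in wild-type brains. Deficient replicate 3 at 18 months was the highest array and wild-type replicate 1 at 4 months the next.

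H2-Ab1 was 1.67 on that old deficient array and 0.22 to 0.38 on the other 3 of its group, and 1.15 on that young wild-type array and 0.08 to 0.44 on the other 3. H2-Eb1 was 1.59 on the old deficient array, against 0.17 to 0.19 on the other 3, and 1.22 on the young wild-type array, against -0.16 to 0.42. Both probes of H2-Ab1 showed this, the second with 1.45 and 0.88 on those arrays. Over the 16 arrays, Pearson's r between the levels was 0.95 for H2-Aa with H2-Eb1, 0.89 for H2-Ab1 with H2-Eb1 and 0.75 for H2-Aa with H2-Ab1, given as a description of arrays that share their labelling and slides.

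Cd74 had levels of -0.03, -0.12, 1.02 and -0.01 in old deficient brains and -0.01, 0.39, -0.59 and 0.37 in old wild-type brains. At 4 months it had 1.04, -0.14, -0.09 and -0.25 in deficient and 0.72, -0.73, -0.18 and 0.00 in wild-type brains. It was high on the same arrays as the class II chains and also on deficient replicate 1 at 4 months, where they were not (r = 0.84 with H2-Aa and 0.46 with H2-Ab1). The genotype differences of the 3 chains ran from -0.20 to -0.11 at 4 months and from -0.10 to 0.23 at 18 months, and each changed sign when 1 array was left out, as did those of Cd74 and the age differences in deficient brains. Beside this, the pituitary marker list (5 measured genes) stood at 2.08 and 6.63 above its mean on the 2 arrays high for class II. Its values ran from -4.02 to 2.08 in old deficient and from -0.58 to 6.63 in young wild-type brains. The list also stood at 5.09 on deficient replicate 3 and at 3.70 and 3.03 on wild-type replicates 3 and 4, all at 4 months, where class II was not high. B cell markers (3 measured of 7) stood at 0.29 and -0.30 and dendritic cell markers (4 of 7) at 0.05 and -0.23 on these 2 arrays. Microglial markers stood at -0.02 and -0.13 and border macrophage markers at 0.15 and 0.04. Red cell genes stood at -0.12 on the old deficient array, against -2.53 to -1.51 on the other 3 of its group, and choroid plexus markers stood at 1.73 on the young wild-type array, against -0.25 to 0.50 on the other 3 of its group. The part of these cells in the class II levels was not tested.

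The promoters of H2-Aa and H2-Eb1, whose levels were high on the same arrays, are shown from the RefSeq table (GRCm38.p6), as the 250 bases before the start, with matches to CTGATTGG in capitals. These letters are those of the Y box, the element that NF-Y binds in class II promoters. They were searched on both strands and occur in 3.83% of all promoter entries and in the promoters of 15 of the 31 member genes in the table (48.4%). The first share counts entries and the second counts genes, so they are not alike. Besides H2-Aa and H2-Eb1 these included H2-Oa, likewise on the strand of the gene. On the opposite strand they included H2-D1, H2-Q7, H2-T23 and Tap1, and several genes of the M region that were not kept.
H2-Aa (chr17:34287824-34288073, minus strand): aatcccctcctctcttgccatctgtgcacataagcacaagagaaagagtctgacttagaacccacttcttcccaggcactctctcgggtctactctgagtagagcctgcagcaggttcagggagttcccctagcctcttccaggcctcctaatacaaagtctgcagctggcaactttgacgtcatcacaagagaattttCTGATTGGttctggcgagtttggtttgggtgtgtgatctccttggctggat
H2-Eb1 (chr17:34305617-34305866, plus strand): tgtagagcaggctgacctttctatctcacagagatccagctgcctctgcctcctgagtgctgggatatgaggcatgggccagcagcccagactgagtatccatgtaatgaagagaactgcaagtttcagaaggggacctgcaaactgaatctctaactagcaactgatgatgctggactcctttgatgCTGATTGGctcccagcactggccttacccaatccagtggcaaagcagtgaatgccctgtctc

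Ciita was kept only through the young deficient group, where it was high, so its genotype difference at 4 months is a description. Its levels were -4.69, -5.05, -5.41 and -5.72 in deficient and -6.50, -5.47, -6.49 and -6.58 in wild-type brains at 4 months. At 18 months they were -5.39, -4.80, -5.38 and -6.44 in deficient and -5.91, -5.13, -5.72 and -6.24 in wild-type brains. The groups overlapped at both ages, and the probe was well above background on all 4 young deficient arrays but on 3 old deficient, 1 old wild-type and 1 young wild-type array. The difference was 1.05 ± 0.35 at 4 months and was not a call (adjusted p = 0.142 by limma), and the repeats in this probe are given above.

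In class II editing, 0 of 4 tested genes were called in any contrast, against 0.187% to 3.18% of all genes. H2-DMb1, the beta chain of H2-DM, had means of -0.63 ± 0.23 in old deficient and -0.99 ± 0.22 in young deficient brains, a difference of 0.36 ± 0.14 (adjusted p = 0.178 by limma). H2-Oa, the alpha chain of H2-O, had means of -3.18 ± 0.12 in old deficient, -2.86 ± 0.32 in old wild-type, -3.03 ± 0.33 in young deficient brains and -3.40 ± 0.15 in young wild-type brains. Its age difference was 0.54 ± 0.17 in wild-type brains (adjusted p = 0.356), and the interaction was -0.69 ± 0.24 (adjusted p = 0.327). Both genes are named after their values were seen.

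Outside the members, the partner genes of antigen presentation were followed as lists. Among 7 class II promoter factors, 1 was called between genotypes at each age (1.53% of all genes at 4 months, 1.48% at 18 months). This was Rfxank, a subunit of the RFX complex that binds the X box, which was higher in deficient brains at both ages. Its levels were 0.39, 0.49, 0.47 and 0.46 in old deficient and -0.16, -0.29, -0.18 and -0.08 in old wild-type brains. At 4 months they were 0.45, 0.08, 0.16 and 0.43 in deficient and -0.24, -0.37, -0.30 and -0.13 in wild-type brains. Genotypes did not overlap at either age. The difference was 0.63 ± 0.10 at 18 months (adjusted p = 0.00328 by limma) and 0.54 ± 0.10 at 4 months (adjusted p = 0.0139).

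The call at 4 months was lost without wild-type replicate 2 at 4 months (0.50, adjusted p = 0.0523) and in a fit of the young arrays alone (adjusted p = 0.17). Rfxank lies on chromosome 8 (bases 72658563 to 72658982, mm9), and among the 131 other tested gene names within 2 Mb, 26 were called for genotype averaged over ages (19.8%, against 3.18% of all genes). The class II chains that RFX acts on were not called, as given above.

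Between ages in deficient brains, where 2.38% of all genes were called, 1 gene was called in each of 4 lists. The ages lay in different rows of the slide, so age and row cannot be told apart for these genes. Nfya, the NF-Y subunit, rose by 0.64 ± 0.14 (adjusted p = 0.0262), with levels of -1.68, -1.26, -1.62 and -1.60 in old deficient and -2.49, -2.21, -2.16 and -1.88 in young deficient brains. Hspa5, the endoplasmic reticulum chaperone BiP, rose by 0.58 ± 0.14 (adjusted p = 0.0454), and was 1 of 6 loading factors. Icosl, a costimulatory ligand, rose by 0.96 ± 0.17 (adjusted p = 0.0124), from a list of 7 class II receptors and costimulators. Icosl was also called for age averaged over genotypes, with 0.64 (adjusted p = 0.0167 by limma), where 1.6% of all genes were called. Between ages in wild-type brains it differed by 0.32 ± 0.18 in the fit of every probe and was not called. Lilrb4, an inhibitory receptor of myeloid cells, rose by 0.75 ± 0.18 (adjusted p = 0.0422). It was 1 of 2 measured genes from a list of 10 named for class I receptors, which does not show that it binds class I. For Nfya and Hspa5 the young deficient group was the one that stood lowest: Hspa5 had means of 5.48 ± 0.19 in old deficient, 5.15 ± 0.17 in old wild-type, 4.89 ± 0.23 in young deficient brains and 5.40 ± 0.21 in young wild-type brains. Both genes had higher means in the 2 groups of row 2 of the slide (old deficient, young wild-type) than in those of row 1. Nfya means were -1.54 in old deficient and -1.67 in young wild-type brains. They were -2.18 in young deficient and -1.83 in old wild-type brains.

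Leaving out 1 array at a time kept the call in 16 of 16 cases for Icosl, 11 for Nfya, 7 for Lilrb4 and 5 for Hspa5. The interactions, which cannot be told apart from the row of the slide, were not called for these genes (adjusted p = 0.161 for Nfya, 0.156 for Hspa5 and 0.379 for Icosl by limma).

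**Figure D5:**
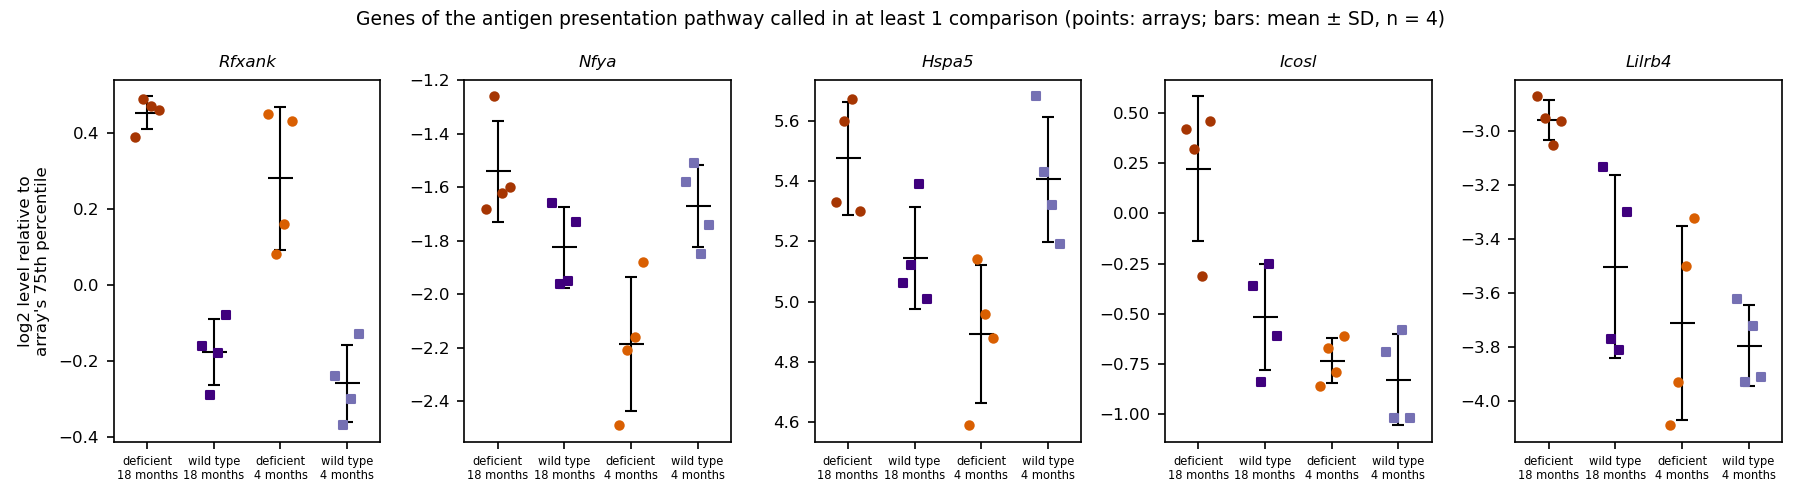
Log2 levels of the 5 partner genes called in at least 1 comparison, on each array, with mean ± SD (n = 4 arrays per group). Rfxank separates the genotypes at both ages, while the other 4 are higher in old than in young deficient brains.

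Calls were absent in every contrast for the immunoproteasome and its activator (0 of 5 genes), for interferon gamma signalling (0 of 12 measured), for lysosomal class II processing (0 of 8) and for class I-like molecules outside the complex (0 of 8). Of all genes, 0.187% to 3.18% were called, depending on the contrast. Psmb8, an immunoproteasome subunit encoded between Tap1 and Tap2, had the smallest p of its list for age averaged over genotypes, with 0.35 ± 0.16 (adjusted p = 0.312 by limma). In interferon gamma signalling, Irf2 differed by 0.65 ± 0.20 (adjusted p = 0.0955) and Gbp2 by 0.52 ± 0.16 (adjusted p = 0.101) between ages in deficient brains. Ctss, the cathepsin that trims the invariant chain, differed by 0.42 ± 0.11 for age averaged over genotypes (adjusted p = 0.0742).

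Markers of cells that could carry these transcripts were followed as lists. Of 10 microglial markers 0 were called between ages in deficient brains (2.38% of all genes), with a median difference of 0.05. For genotype averaged over ages 2 (Sall1 and Fcrls) were called lower in deficient brains (3.18% of all genes called). At 4 months 1 was called lower in deficient brains (1.53% of all genes called). The range of the microglial list's median over arrays, relative to each gene's mean, was -0.10 to 0.05 in old deficient, 0.11 to 0.25 in old wild-type, -0.50 to -0.02 in young deficient and -0.13 to 0.11 in young wild-type brains. Of 6 border macrophage markers measured, 1 was called between genotypes at 18 months, higher in deficient brains (1.48% of all genes called). All 6 neutrophil genes measured were lower in old than in young deficient brains, 0 of them called (median difference -0.84). All 5 red cell genes were lower in old than in young deficient brains, and 4 of them were called, against 2.38% of all genes (median difference -2.25). The list's median ranged from -2.53 to -0.12 in old deficient and from -0.02 to 1.92 in young deficient brains. Cd209a, a dendritic cell marker, was higher in old deficient brains by 1.28 ± 0.29 (adjusted p = 0.0336) and Cd2, of T cells, by 1.42 ± 0.30 (adjusted p = 0.0271) in the same comparison. Each was the only call of its list, of 4 measured genes. The other members of these lists were not alike in direction: the list medians were 0.18 (dendritic cell, lowest member -0.68) and 0.08 (T cell, lowest member -0.34). In wild-type brains Cd209a differed by 1.24 ± 0.29 between ages (adjusted p = 0.0924) and Cd2 by 0.19 ± 0.30. Their part in the age difference of Tap2 was not tested.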

How the data were processed

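Array intensities were read from the authors' scanner files, which, per the file headers, were made by Agilent Feature Extraction 10.7.3.1 (processed signal, mm9 coordinates). The value table deposited for the series holds log2 values whose steps are not stated, and limma is named in the submitters' processing notes without a version. Groups came from sample titles, since strain and age tags are interchanged in the labels.

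Of 59305 non-control spots per array, 98 to 182 outlier spots were left out and 0 were saturated. Spots of a probe were averaged, 33071 probes passed the filter, and each of 23030 genes was represented by its brightest kept probe. The 75th percentile of the signal was 626 to 1348 per array, and 58.4% to 66.1% of spots were well above background. With 4 arrays per group, the number of arrays limits the precision.

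A 4-group model was fitted to all 16 arrays with limma 3.58.1 in R 4.3.3, with 7 contrasts, and Benjamini-Hochberg adjustment covered every gene tested, at 0.05. The script was checked on simulated data. P-values reflect only how far these samples vary, which may be technical in part. Named members were 12 core genes, others called, and those said to be chosen after their values were seen. Genes named from the other lists were called or among those with the smallest p. The members and lists were chosen with earlier results of these data known. RefSeq-style accessions were given for 58 member probes, and 52 of these were found in the GRCm38 table. Alternatives were normexp (offset 50), quantile normalization, the deposited table, no filter or a strict one, mean of probes, only the groups compared, a replicate block and leaving out arrays.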

Additional observations from a re-analysis of the deposited data

Results flagged for a closer look

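Among the 12 core genes in 4 groups, 8 of 48 tests found an array whose gap to the nearest of its group exceeded Dixon's 95% critical value for 4 samples, where chance alone flags about 5% of independent groups. These tests are not independent: 5 of the 8 lie on 1 array, and the levels of the class II chains correlate over arrays (r of 0.75 to 0.95), so the count is not read against that share. On deficient replicate 3 at 18 months stood H2-Aa at -1.30 with the other 3 arrays at -3.22 to -3.12, H2-Ab1 at 1.67 with the others at 0.22 to 0.38, H2-Eb1 at 1.59 with the others at 0.17 to 0.19, and Cd74 at 1.02 with the others at -0.12 to -0.01. The class I chain H2-D1 was also highest there, at 2.62 with the others at 2.37 to 2.40.

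Cd74 stood at 1.04 on deficient replicate 1 at 4 months, with the other 3 arrays at -0.25 to -0.09. Ciita stood at -5.47 on wild-type replicate 2 at 4 months, with the others at -6.58 to -6.49. H2-K1 stood at 2.21 on wild-type replicate 2 at 18 months, the lowest of its group, with the others at 2.70 to 2.80.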

How the results depend on the processing

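Member genes called between ages in deficient brains numbered 1, and 0 with normexp, without a filter, with only the groups compared and with the replicate block, and 2 (Tap2 and H2-Q5) without the 3 arrays highest on the first principal component, a choice made after seeing the data. Leaving out 1 array gave 0 to 2. Member probes called there numbered 0, and 1 with quantile normalization, the deposited table, the strict filter and without those 3 arrays, and 0 to 1 leaving out 1 array. With the replicate block 1 member gene and 1 member probe (Ciita) were called for genotype at 4 months and for genotype averaged over ages, against 0 of each, a member kept only through the young deficient group, where it was high. Leaving out 1 array gave 0 to 1 probes for genotype at 4 months (H2-Ob), and 0 to 1 genes and 0 to 1 probes for genotype averaged over ages (H2-T10 or H2-Ob) and for age averaged over genotypes (H2-Q5, Tap2 or H2-Ob). The counts for genotype at 18 months, age in wild type and the interaction were 0 under all of these.

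Replicate numbers did not pair the arrays (r of -0.444 to 0.274 over 24 same-number pairs, 7 of them over 0.1, and 4 of 16 arrays nearest to their own number). With the replicate block Ciita had adjusted p of 0.0436 at 4 months and 0.0419 averaged, Tap2 lost its call (0.0896), and so did Nfya, Hspa5 and Lilrb4.

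The sign changed when 1 array was left out for the following log2 differences, given with their lowest and highest value. At 4 months, deficient minus wild type: H2-Aa -0.43 to 0.22, H2-Ab1 -0.24 to 0.11, H2-Eb1 -0.41 to 0.05 and Cd74 -0.11 to 0.44 (-0.10 without the 3 arrays). At 18 months: H2-Aa -0.57 to 0.07, H2-Ab1 -0.12 to 0.36, H2-Eb1 -0.26 to 0.22 and Cd74 -0.09 to 0.29. Between ages in deficient brains: H2-Aa -0.36 to 0.28, H2-Ab1 -0.07 to 0.42, H2-Eb1 -0.09 to 0.38 and Cd74 -0.20 to 0.37. The causes were not tested. Signal near background limits Ciita, H2-M5 and Nlrc5.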
